A study of Mus musculus with 6 samples.

Results

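The Bcl2 family decides whether a cell keeps its mitochondria intact or dies, and 10 of its genes were followed in mouse fetal liver erythroid progenitors carrying SclRER/RER, which encodes a DNA-binding mutant of SCL, and in wild-type (WT) progenitors. The genes were Bcl2, Bcl2l1, Mcl1, Bcl2l11, Bax, Bak1, Bid, Bad, Bbc3 and Pmaip1. The members were all probes that the platform annotation assigns to them in the non-normalized signal table, 23 of 46632 probes, and 9 of the 10 genes had at least 1. No probe used here was named Bax, so Bax is not analysed here. Each genotype had 3 single-colour Illumina bead arrays, all labelled strain C57Bl/6. Per the labels' protocols, liver cells of day E12.5 embryos were grown for 3 days and the cells lacking Ter119, a glycophorin-associated protein of late erythroblasts, were taken. The name SclRER/RER gives the RER allele on both gene copies, and the labels name no other allele or agent in either genotype. The labels do not state if the 3 arrays of a genotype are from different embryos or cultures, so p-values cover the spread of these arrays, part of which may be technical.

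The family has 3 kinds of protein. Guardians such as Bcl2, Bcl2l1 (Bcl-xL) and Mcl1 keep the outer mitochondrial membrane closed, pore formers such as Bax and Bak1 open it and release cytochrome c, and BH3-only proteins such as Bcl2l11 (Bim), Bid, Bad, Bbc3 (Puma) and Pmaip1 (Noxa) carry death signals to the others. Red cell progenitors survive on erythropoietin, which acts through Stat5, and Bcl-xL is the guardian best known for protecting maturing erythroblasts. SCL binds E-boxes, often beside a GATA site with Gata1 as its partner, so the comparison asks whether any of these genes depends on DNA binding by SCL. Where probes share a gene they are numbered here from the brightest down, over all 6 arrays.

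The bases just before the start sites of 4 members are shown to let the DNA-binding question be read on actual sequence. Bid was apart between genotypes on its tested probe, and Bcl2 on probe 1 but not on its tested probes 2 and 3. Apart means that the arrays of the genotypes did not overlap. This held for 2 of the 8 tested member probes, against 24.5% of all tested probes. Mcl1 is the tested guardian with 1 probe, and Bcl2l1 the guardian named above. Capitals mark every E-box (CANNTG) and GATA (GATA or its reverse complement). Each sequence is the 250 bases before an annotated start in RefSeq's GRCm38.p6, on the gene's own strand. They lie at chr1:106714291-106714540 (minus strand) for Bcl2, chr6:120916825-120917074 (minus) for Bid, chr3:95658471-95658720 (plus) for Mcl1 and chr2:152828490-152828739 (minus) for Bcl2l1, which has 3 annotated starts and is shown for the first of them in the table.
Bcl2: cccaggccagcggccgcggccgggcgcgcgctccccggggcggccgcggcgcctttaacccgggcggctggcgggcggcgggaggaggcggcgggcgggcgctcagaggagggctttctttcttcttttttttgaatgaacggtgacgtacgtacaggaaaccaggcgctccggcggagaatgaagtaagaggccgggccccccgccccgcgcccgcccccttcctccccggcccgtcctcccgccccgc
Bid: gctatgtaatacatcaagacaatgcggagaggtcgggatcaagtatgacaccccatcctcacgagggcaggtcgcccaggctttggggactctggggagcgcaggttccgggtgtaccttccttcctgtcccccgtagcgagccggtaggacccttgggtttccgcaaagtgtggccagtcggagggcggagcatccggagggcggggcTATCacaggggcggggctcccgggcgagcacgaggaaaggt
Mcl1: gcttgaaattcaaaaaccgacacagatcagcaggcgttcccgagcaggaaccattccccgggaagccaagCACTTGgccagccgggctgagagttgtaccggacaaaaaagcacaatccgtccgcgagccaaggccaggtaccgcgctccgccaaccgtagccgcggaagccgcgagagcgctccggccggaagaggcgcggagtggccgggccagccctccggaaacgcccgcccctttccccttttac
Bcl2l1: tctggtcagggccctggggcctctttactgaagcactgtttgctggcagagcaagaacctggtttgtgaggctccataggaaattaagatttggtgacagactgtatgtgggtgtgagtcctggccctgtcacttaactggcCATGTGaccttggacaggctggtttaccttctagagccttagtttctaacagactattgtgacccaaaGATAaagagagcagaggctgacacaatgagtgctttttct

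The Bcl2 window, of 74.8% G and C, held neither motif, and the Bid window held a single GATA on the opposite strand 41 bases before the start. The Mcl1 window held 1 E-box, and the Bcl2l1 window shown held 1 E-box 108 bases and 1 GATA 40 bases before the start. Bcl2l1 windows 2 and 3, not shown, held 1 E-box and 0 GATA each. Pmaip1 was left out of the promoter reading. For the other 9 of the 10 members, 15 RefSeq windows were read in all. Of these, 9 held an E-box and 3 a GATA, against 66.2% and 53.6% of all 32851 promoter windows of this length. A spaced pair of the kind used by SCL with a GATA factor (CTGNNNNNNNGATA, or the same with 1 more N, both strands) was in 0 of the 15 and in 4.05% of all windows. The erythropoietin-responsive STAT motif (TTCNNNGAA) was also in 0 of the 15, against 7.02% of all. A match is a run of letters and not a shown binding site, and its absence from these 250 bases says nothing of sites elsewhere in the gene.

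Among members bright enough to test, none passed the threshold between genotypes. With 3 arrays per genotype that does not show that they were unchanged. A probe was tested where its detection p-value was below 0.01 on at least 3 of the 6 arrays, which 8 of the 23 probes met, covering Bcl2, Mcl1, Bid, Bad, Pmaip1 and Bak1. Of these 8 probes, 0 rose and 0 fell in the limma fit over all 11578 kept probes (adjusted p below 0.05), and 0 had an unadjusted p below 0.05, as 19.6% of all kept probes did. In the same fit 6.58% of kept probes and 6.58% of the 6855 genes, each taken by its brightest kept probe, passed. With 8 probes, a count of 0 cannot be told from that share. Differences of the tested members ran from -0.24 to 0.29 on the log2 scale, with a median of -0.04 over the 6 genes. The middle of all tested genes was 0.02 and their 5th to 95th percentiles ran from -0.50 to 0.52. Exact permutation p-values over arrays, where given, are two-sided, and 3 arrays against 3 allow none below 0.1. In these mixed progenitor samples, fewer cells with a transcript and less of it per cell cannot be told apart.

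**Figure D1:**
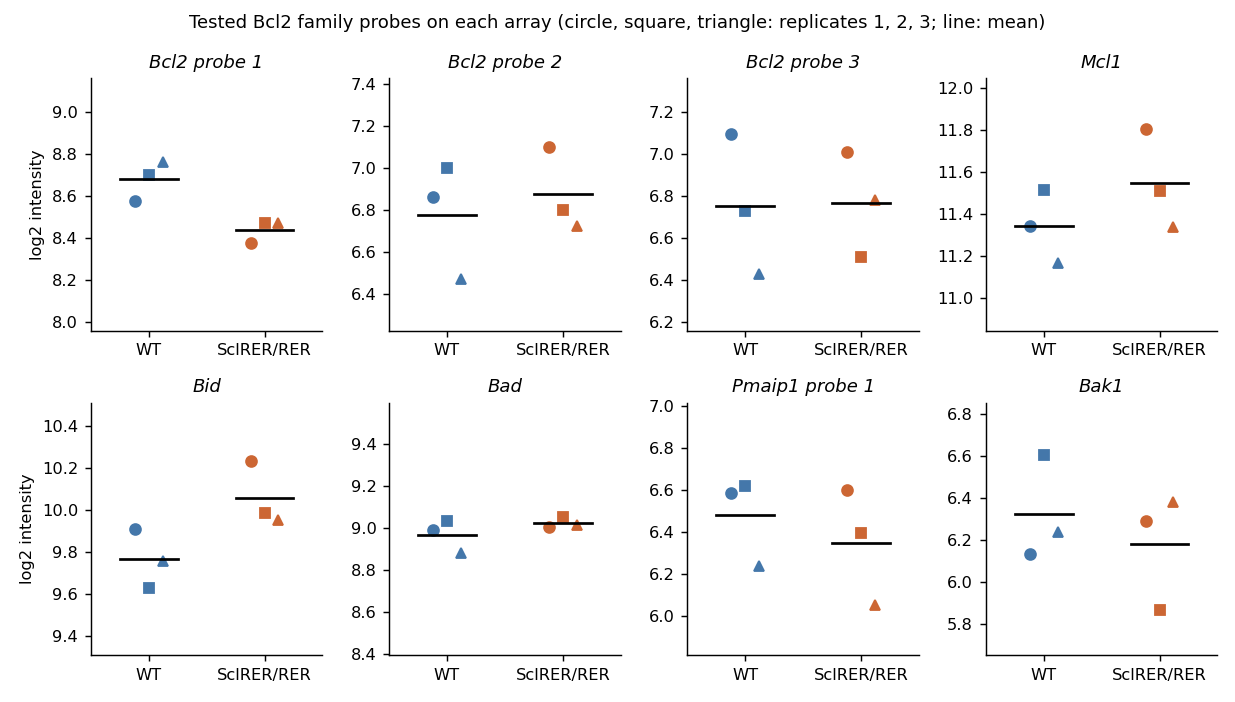
Log2 intensity of the 8 tested Bcl2 family probes on each array (vertical axes, each spanning the same range around its own probe's mean), with WT in blue, SclRER/RER in orange, symbols for replicates 1 to 3 and a line at each genotype's mean. The genotypes are apart for Bcl2 probe 1, lower in SclRER/RER, and for Bid, higher in SclRER/RER, and overlap on the other probes. Of all kept probes, 24.5% were apart.

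Of the guardians, Bcl2 had the lower values in SclRER/RER on its brightest probe. Bcl2 probe 1 read 8.37, 8.47 and 8.47 log2 intensity on SclRER/RER arrays 1 to 3 and 8.58, 8.70 and 8.76 on WT arrays 1 to 3. Every WT array lay above every SclRER/RER array, a separation also seen on 24.5% of all kept probes. The means were 8.44 ± 0.06 and 8.68 ± 0.09 (SD, n = 3 each), a log2 difference of -0.24 (SE 0.11, 95% confidence interval -0.49 to 0.01), with a limma adjusted p of 0.278 and an exact permutation p of 0.1. On the linear scale the interval ran from 0.712 to 1.01 times the WT level.

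The other 2 tested probes of Bcl2 did not share that difference in size or sign. Bcl2 probe 2 read 7.10, 6.80 and 6.73 in SclRER/RER and 6.86, 6.997 and 6.47 in WT, a log2 difference of 0.10 (SE 0.17, adjusted p = 0.825). Bcl2 probe 3 read 7.01, 6.51 and 6.78 in SclRER/RER and 7.09, 6.73 and 6.43 in WT, a difference of 0.02 (SE 0.19, adjusted p = 0.98). The genotypes overlapped on both, and their spread within a genotype, 0.20 to 0.33 as an SD, was wider than on probe 1. Both were detected on all 6 arrays but read close to background, where a fold change is understated. Probe 1 is annotated to another Bcl2 transcript record than probes 2 and 3. Untested probes 5 and 6 share the record of probe 1, were detected on no array and overlapped between genotypes. The within-array log2 ratio of probe 1 over probe 2, a comparison chosen after the values were seen, averaged 1.56 ± 0.25 for SclRER/RER against 1.90 ± 0.34 for WT (SD, n = 3 each). That difference of -0.34 had an exact two-sided permutation p of 0.4, and 0.6 after Benjamini-Hochberg adjustment over the 3 probe pairs, so unequal change of the Bcl2 probes was not shown.

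Mcl1, the short-lived guardian needed by stem cells and early progenitors, was measured well above background on every array. It read 11.80, 11.51 and 11.34 in SclRER/RER and 11.34, 11.51 and 11.17 in WT. The highest reading was SclRER/RER array 1, and the remaining arrays of both genotypes were interleaved. The means were 11.55 ± 0.23 and 11.34 ± 0.17 (n = 3 each), a log2 difference of 0.21 (SE 0.15, 95% confidence interval -0.14 to 0.56, adjusted p = 0.535; exact permutation p = 0.5). The interval allows a level from 0.907 to 1.47 times that of WT. Without SclRER/RER array 1 the difference was 0.08 (adjusted p = 0.846), and without SclRER/RER array 3 it was 0.31 (adjusted p = 0.277).

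Bid, which is cut by caspase 8 and then carries the death receptor signal to mitochondria, had the largest positive difference of the tested members. Its probe read 10.23, 9.98 and 9.95 in SclRER/RER and 9.91, 9.63 and 9.76 in WT, so that all SclRER/RER arrays were above all WT arrays, the closest pair being 9.95 and 9.91. Such a separation was seen on 24.5% of all kept probes. The means were 10.06 ± 0.15 and 9.76 ± 0.14 (n = 3 each). The log2 difference of 0.29 (SE 0.13, 95% confidence interval -0.01 to 0.59) had an adjusted p of 0.266 and an exact permutation p of 0.1, and corresponds to 1.22 times the WT level. With any single array left out the difference lay between 0.20 and 0.36, and it passed the threshold in none of those fits. Its sign could not change there, since the groups were apart.

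Bad, a BH3-only protein that 14-3-3 proteins hold inactive while survival kinases are on, had the narrowest interval of the tested members. It read 9.01, 9.05 and 9.02 in SclRER/RER and 8.99, 9.03 and 8.88 in WT, with all but WT array 3 within a narrow band. The log2 difference was 0.06 (SE 0.11, 95% confidence interval -0.19 to 0.30, adjusted p = 0.843; exact permutation p = 0.4), which allows between 0.878 and 1.23 times the WT level. The difference was 0.012 without WT array 3 and 0.17 with median scaling (adjusted p = 0.983 and 0.976).

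Pmaip1 and Bak1 were detected on 3 of the 6 arrays each, the fewest the filter allows. Pmaip1, a p53 target that binds Mcl1, read 6.60, 6.40 and 6.06 in SclRER/RER and 6.59, 6.62 and 6.24 in WT on its probe 1, which was detected on 1 SclRER/RER and 2 WT arrays. The difference was -0.13 (SE 0.17, 95% confidence interval -0.52 to 0.26, adjusted p = 0.757). Bak1, the pore former that sits in the mitochondrial membrane before any death signal, read 6.29, 5.87 and 6.38 in SclRER/RER and 6.14, 6.60 and 6.24 in WT, detected on 2 SclRER/RER and 1 WT arrays. Its difference was -0.15 (SE 0.18, 95% confidence interval -0.55 to 0.26, adjusted p = 0.74). Readings of the genotypes were interleaved for both genes, and values this close to background understate a fold change.

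**Figure D2:**
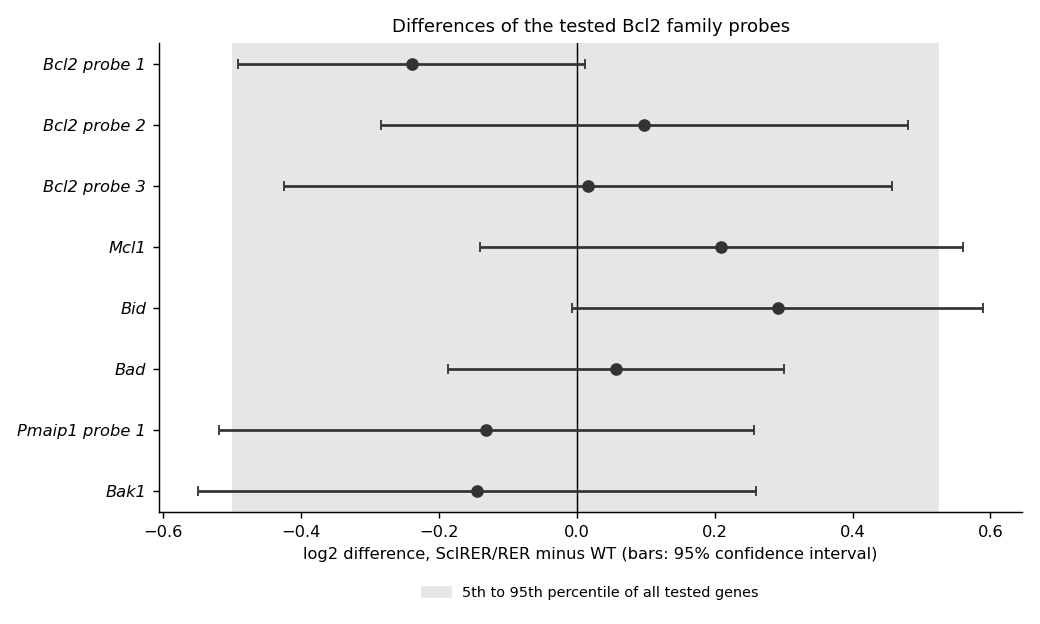
Log2 difference of each tested Bcl2 family probe, SclRER/RER minus WT (horizontal axis), with its 95% confidence interval from the limma fit of 3 arrays against 3. All 8 intervals include 0, and all 8 points lie within the grey band from -0.50 to 0.52 that holds the 5th to 95th percentile of tested genes.

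The remaining 15 probes did not reach the detection filter, and they include every probe of Bcl2l1, Bcl2l11 and Bbc3. No p-value from the filtered fit exists for them, and since 13 of the 15 were detected on no array and the other 2 on a single array each, their readings are given as values near background, with no fold change. With no filter, the fit over all 46632 probes gave 4 of the 15 an unadjusted p below 0.05, against 10.9% of all probes, and none an adjusted p below 0.325. The genotypes were apart on 5 of the 15, against 15.4% of all 46632 probes. Both shares include the kept probes, 24.5% of which were apart, so they are not shares of untested probes alone.

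Bcl2l1 was detected on 0 of 6 arrays by each of its 4 probes. Signals ran from 59.9 to 149 intensity units over the 4 probes, beside array medians of 78.4 to 91.7. Its brightest probe read 5.34, 5.63 and 5.94 log2 intensity in SclRER/RER and 5.99, 6.08 and 6.17 in WT, with detection p-values between 0.0159 and 0.0574. All SclRER/RER readings were below all WT readings on that probe, and the genotypes overlapped on the other 3. These probes therefore give no level for Bcl-xL mRNA in either genotype, and its expression cannot be read as absent from them.

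Bcl2l11, the BH3-only protein that rises when survival factors are withdrawn, was detected on a single array, SclRER/RER array 2, by its probe 1. That probe read 5.84, 6.56 and 6.04 in SclRER/RER and 5.64, 5.60 and 5.81 in WT. The genotypes were apart by a small gap, between SclRER/RER array 1 and WT array 3. Bcl2l11 probe 2 was detected on no array, and its readings overlapped.

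Bbc3, the p53 target Puma, was detected on no array by either probe. The readings of its probe 1 overlapped, and its probe 2 read 5.57, 5.31 and 5.11 in SclRER/RER and 5.71, 5.84 and 5.59 in WT, apart by a small gap. Pmaip1 probe 2 read 5.12, 4.85 and 4.94 in SclRER/RER and 5.24, 5.86 and 5.31 in WT, also apart and also detected nowhere. The genotypes overlapped on Pmaip1 probe 3, as on the tested probe of the same gene. Of the 5 untested Bcl2 probes, 1 was detected on a single array and 4 on none. The dimmest, Bcl2 probe 8, was the only one of those 5 on which the genotypes were apart.

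**Figure D3:**
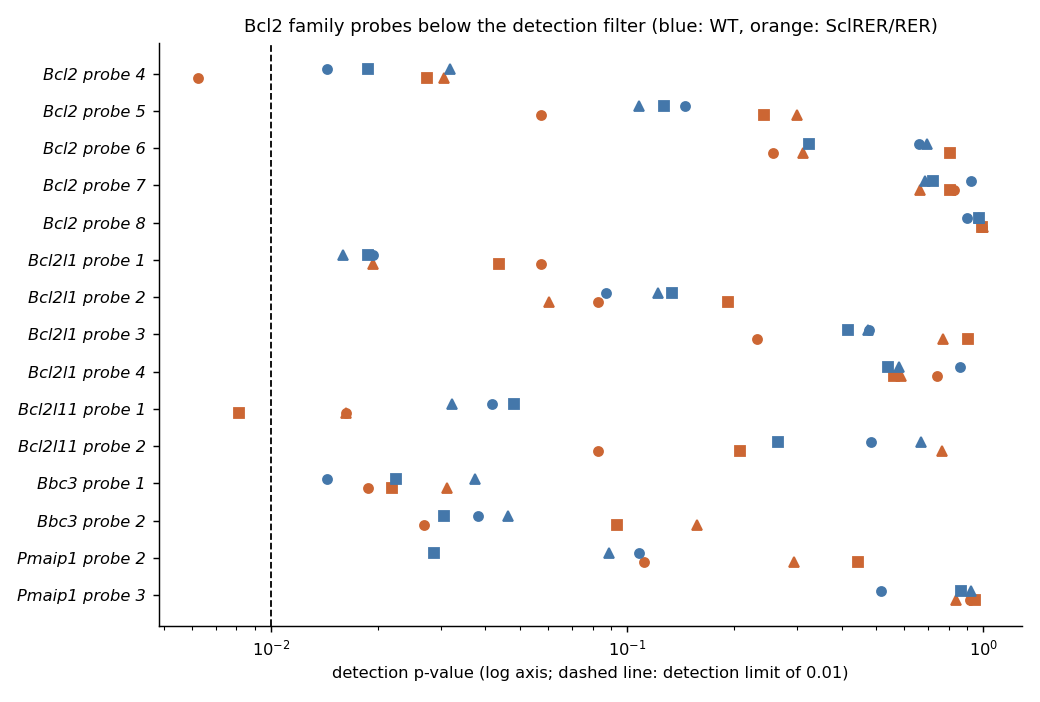
Detection p-value of the 15 untested Bcl2 family probes on each array (horizontal log axis), with WT in blue, SclRER/RER in orange and symbols for replicates 1 to 3. A single array lies left of the dashed limit of 0.01 for Bcl2 probe 4 and for Bcl2l11 probe 1, and none for the other 13 probes, all 4 of Bcl2l1 among them.

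Genes that act with the family were read from 8 lists, 116 genes counted once each and without the members, of which 65 were tested. Of these 65, 1 rose, 1 fell and 63 did not pass, beside 6.58% of all genes that passed. With 65 genes, a count of 2 cannot be told from that share. Their median difference was 0.05 against 0.02 for all tested genes, and 62 of the 65 differed by less than 0.5. The genotypes did not overlap for 12 of the 65, beside 24.5% of all kept probes. The genes that passed were both in signalling from the erythropoietin receptor.

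Other relatives of Bcl2 did not pass, with 0 of 6 tested higher and 0 lower and a median difference of -0.19. Bcl2l2, the guardian Bcl-w, differed by 0.13 (SE 0.21, adjusted p = 0.802). Bnip3l, the mitophagy receptor that clears mitochondria from maturing red cells, differed by -0.18 (SE 0.19, adjusted p = 0.691). Bok, a relative of Bax, differed by -0.22 (adjusted p = 0.458), and those with the smallest p-values were Bcl2l13 at -0.22 (adjusted p = 0.361) and Bnip1 at -0.20 (adjusted p = 0.439). Of 16 relatives with a probe, 10 missed the filter, Bik, Bmf and the Bcl2a1 genes with a probe among them.

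Downstream of the mitochondria no gene passed either. Of 10 tested genes for release from mitochondria and the apoptosome, 0 passed, with a median of 0.03. Apaf1, the scaffold that cytochrome c activates, differed by 0.03 (SE 0.13, 95% confidence interval -0.27 to 0.33), and Casp9, the caspase it recruits, by 0.16 (SE 0.15, adjusted p = 0.641). Over single arrays left out Casp9 ranged from 0.035, without SclRER/RER array 1, to 0.27, without SclRER/RER array 3. Endog, a mitochondrial nuclease, differed by 0.28 (adjusted p = 0.289) and Htra2, a released protease, by -0.17 (adjusted p = 0.498). Of 5 tested caspases and substrates 0 passed, and the smallest p was that of Parp1, a caspase substrate and DNA repair enzyme, at -0.31 (SE 0.12, adjusted p = 0.177), followed by the nuclease inhibitor Dffa at 0.15 (adjusted p = 0.592). Birc5, a mitotic member of the inhibitors of apoptosis and the only one of 6 with a probe to be tested, differed by -0.18 (adjusted p = 0.566), or by -0.058 without SclRER/RER array 1 and -0.28 without SclRER/RER array 3, while Xiap missed the filter.

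In the death receptor pathway 0 of 3 tested genes passed. Tnfrsf1a, a receptor for tumour necrosis factor, differed by -0.32 (adjusted p = 0.336) and Fadd, the adaptor that recruits caspase 8 upstream of Bid, by -0.09 (adjusted p = 0.767). Of 13 tested genes whose products hold or turn over family proteins 0 passed, with a median of 0.11. Dynll1, a dynein light chain that can tether Bcl2l11 to the cytoskeleton, was closest to the threshold. It read 8.35, 8.19 and 8.37 in SclRER/RER and 7.83, 7.95 and 7.76 in WT, every SclRER/RER array above every WT array, a difference of 0.46 (SE 0.12, adjusted p = 0.0532). Ywhaq, a 14-3-3 protein of the kind that holds Bad, differed by 0.25 (adjusted p = 0.335).

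Among 11 tested genes of the p53 axis, which drives Bbc3 and Pmaip1, 0 passed and the median was 0.13. Mdm2, the p53 target that limits p53, differed by 0.06 (SE 0.10, 95% confidence interval -0.18 to 0.29). A pair of p53 targets split the SclRER/RER arrays. Phlda3, an inhibitor of Akt, read 7.85, 8.03 and 9.02 in SclRER/RER and 8.87, 9.20 and 9.04 in WT, a difference of -0.74 (SE 0.28, adjusted p = 0.179). Trp53inp1, a stress protein, read 9.58, 9.66 and 8.77 in SclRER/RER and 8.93, 8.78 and 8.74 in WT, a difference of 0.52 (SE 0.22, adjusted p = 0.242). In both genes SclRER/RER array 3 lay with the WT arrays. Without that array Phlda3 differed by -1.10 (adjusted p = 0.00305) and Trp53inp1 by 0.80 (adjusted p = 0.00587), in opposite directions. The tested Pmaip1 probe then differed by 0.02 (adjusted p = 0.967). The array was singled out after its values were seen, so these p-values are no separate test. Each of Phlda3 and Trp53inp1 passed under 2 of 16 alternatives. Over arrays left out, their adjusted p reached 0.452 and 0.496.

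Signals that feed the family held both genes that passed. Of 16 tested genes 1 rose, 1 fell and 14 did not pass, with a median of 0.06. Epor, the erythropoietin receptor, read 9.67, 9.60 and 9.60 in SclRER/RER and 10.24, 10.10 and 10.15 in WT, and fell by 0.54 (SE 0.11, adjusted p = 0.0199), with 1 of its 2 kept probes passing. Cish, a Stat5 target that dampens the same receptor, read 11.84, 11.84 and 11.63 in SclRER/RER and 11.28, 11.35 and 11.26 in WT, and rose by 0.48 (SE 0.11, adjusted p = 0.0442). The groups did not overlap for either gene. Neither call held without SclRER/RER array 2 or without any single WT array (adjusted p between 0.0685 and 0.0787 for Epor and between 0.124 and 0.155 for Cish). That of Cish was also lost without SclRER/RER array 1 (adjusted p = 0.0958) and with no detection filter (0.0514), and both were lost with median scaling (0.772 for Epor and 0.332 for Cish).

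The remaining genes of this list did not pass. Stat5a, through which the receptor acts on Bcl2l1, differed by 0.25 (SE 0.16, adjusted p = 0.46), and Pim1, a survival kinase that inactivates Bad, by -0.37 (SE 0.16, adjusted p = 0.257). Foxo3, the factor that switches on Bcl2l11 when Akt is off, differed by 0.21 (SE 0.13, adjusted p = 0.46). Ddit3, the stress factor CHOP, differed by -0.44 (SE 0.13, adjusted p = 0.0886), Klf1, an erythroid factor, by 0.33 (SE 0.11, adjusted p = 0.116) and Gata1, the GATA partner of SCL, by -0.23 (SE 0.14, adjusted p = 0.43).

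**Figure D4:**
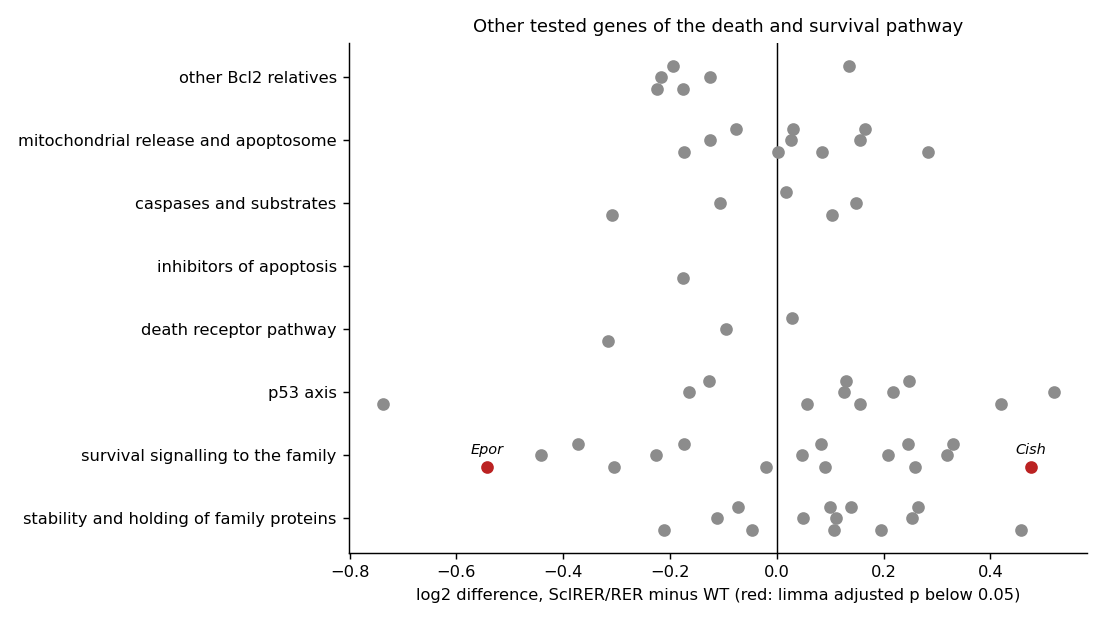
Log2 difference, SclRER/RER minus WT (horizontal axis), of each tested gene in the 8 lists of genes that act with the Bcl2 family. Points in red passed the limma test, Epor at -0.54 and Cish at 0.48, and grey points did not.

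Where the members lie on the chromosomes was also described, since the share of genes that passed differed between chromosomes. Of the 20 nearest tested genes, 10 on each side, 0 passed around Bcl2, Mcl1 and Bad and 1 around Bcl2l1 (Trib3), Bcl2l11 (Blvra) and Bak1 (Dusp1). Around Bid 4 passed, all of them higher in SclRER/RER (Hdhd5, Apobec1, Gdf3 and Slc2a3), where 7.10% of all tested genes of chromosome 6 passed. Around Pmaip1 5 passed, 2 higher and 3 lower (Txnl1, Nars, Lman1, Tcf4 and 4930503L19Rik), beside 6.37% of chromosome 18. Around Bbc3 2 passed, both lower (Pla2g4c and Slc1a5), and around the place of Bax 4 did, 3 higher and 1 lower (Nosip, Gys1, Dhdh and Bcat2). On chromosome 7, which holds Bbc3 and Bax, 10.6% of tested genes passed, and on chromosome 1, which holds Bcl2, 10.7%. The part of this placement in the members' values was not tested.

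The arrays held mean signals of 385 to 546 intensity units and 11084 to 12678 detected probes each, SclRER/RER array 1 being the brightest. Of 9 erythroid markers with a probe all 9 were tested and 2 fell, Slc4a1 and Epor. Slc4a1, the band 3 anion exchanger of maturing erythroblasts, read 9.33, 9.37 and 10.34 in SclRER/RER and 12.38, 11.65 and 12.06 in WT. It fell by 2.35 (SE 0.29, adjusted p = 0.00202) and passed under all 16 alternatives. Of 9 megakaryocyte markers with a probe 5 were tested and 4 fell, with a summed linear level of 1043 to 1827 in SclRER/RER against 2727 to 3208 in WT, while Itga2b, Gp9, Gp1bb and Clec1b missed the filter. Of 9 mast cell and basophil markers 4 were tested, 1 rose and 1 fell, and of 9 neutrophil and granule markers 8 were tested and 3 fell. The summed levels overlapped between genotypes for mast cell markers (930 to 1113 and 930 to 1018) and for neutrophil markers (4228 to 9952 and 6772 to 7547). SclRER/RER array 1 had the highest reading of all arrays for the late neutrophil genes Ltf, Camp, Ngp, S100a8 and S100a9, described after their values were seen. The other 3 tested genes of that list, Mpo, Prtn3 and Ctsg, are those that fell. They read 10.49, 7.50 and 6.27 on SclRER/RER array 1, each below every WT array. S100a8 read 12.03, 11.06 and 10.75 in SclRER/RER and 11.52, 11.45 and 11.33 in WT, and Ngp read 9.51, 8.45 and 7.51 against 8.45, 8.60 and 8.45. The same array held the highest Mcl1 and Bid readings, and without it their differences were 0.08 and 0.20. Macrophage and lymphoid markers had 0 of 8 tested each, hepatocyte markers 1 of 9 (Apoa1) and endothelial and stromal markers 1 of 10 (Kdr). Beside the lower megakaryocyte markers and Slc4a1, no tested member probe passed the threshold. The part of other cells or of cell stage in the members' readings was not tested.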

How the data were processed

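Per the file headers and values, the deposited non-normalized table holds a signal intensity per probe and array, with neither background subtraction nor scaling. The adjacent deposited columns, headed as detection p-values, rose with signal and were read as a fraction equal to 1 minus that p. On WT array 3 this score did not follow signal (Spearman 0.899, against 0.996 or more elsewhere), so it was replaced, rank by rank of signal, with the average of the scores of the other WT arrays. The authors' deposited normalized intensity table served as an alternative. The submitters' processing notes name limma without a role.

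Analysis used limma 3.58.1 under R 4.3.3: normexp background correction with control parameters inferred from detection, an offset of 16, quantile normalization and log2. Probes with detection p below 0.01 on at least 3 of 6 arrays were kept. All were fitted together on genotype with lmFit and eBayes (two-sided, Benjamini-Hochberg over all kept probes, threshold 0.05). Intervals are 95% from the moderated fit. Genes are represented by their brightest kept probe over all arrays. The number of arrays limits precision.

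Of the probes, 29976 had 1 gene symbol, 10 several and 16646 none here, and 29921 were matched by gene identifier to GRCm38.p6, used for names and gene order. Named genes were all member probes and, from each list, up to 6 that passed by size, up to 2 that did not with the smallest p, and 18 fixed genes where tested; marker genes are given as counts, a few with values. The rule for genes most like Bcl2l1 found none, as no Bcl2l1 probe was kept. Members and lists were chosen with earlier results of these data known.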

Additional observations from a re-analysis of the deposited data

How the results depend on the processing

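Under all 16 alternatives, 0 member probes passed. These were the authors' normalized values, no detection filter (23 probes), detection on all 6 arrays (6 probes, without Pmaip1 and Bak1), no background correction, an offset of 50, median scaling, deposited detection values, an intensity trend, array weights, the replicate block and each array left out. At an unadjusted limma p below 0.05 the filtered settings gave 0 or 1 of the 6 to 8 member probes, where 19.6% of all kept probes had one in the main fit. With no filter 6 of 23 did, against 10.9% of all probes, and 4 of those 6 were untested probes near background. Bcl2 probe 1 ranged from -0.29 to -0.13 (adjusted p 0.219 to 0.979), Bid from 0.20 to 0.41 (0.171 to 0.826) and Mcl1 from 0.08 to 0.34 (0.277 to 0.929). Median scaling moved the median of all probes by 0.11 and turned the sign of no member. Differences near 0 changed sign. Bcl2 probe 2 went to -0.015 on dropping SclRER/RER array 1 and -0.055 on dropping WT array 3, with a range over arrays left out of -0.055 to 0.21. Bcl2 probe 3 went to -0.092 with array weights, -0.11 and -0.14 without those same arrays, with a range of -0.14 to 0.19. Pmaip1 went to 0.016 without SclRER/RER array 3 (range -0.26 to 0.016), and Bak1 to 0.012 without SclRER/RER array 2 (range -0.25 to 0.012). Of other genes, Bcl2l2 ranged from -0.052 to 0.38, Bnip3l from -0.32 to 0.012, Apaf1 from -0.085 to 0.12, Ltf (a neutrophil marker) from -0.15 to 0.72 and Fadd from -0.17 to 0.00041 over arrays left out, and Fadd was 0.024 with median scaling. Bad ranged from 0.012 to 0.17. On leaving out 1 array, the difference moved by over 1.5 times for 6 of the 8 member probes and for 16 of 27 other pathway genes named. For all of these the cause was not tested.

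The count of other pathway genes that changed, 2, was 1 with no filter, 0 with median scaling, 4 with array weights and 1 with the replicate block, and 0 to 4 on leaving out 1 array: 0 without SclRER/RER array 2 or any WT array, 1 without SclRER/RER array 1 and 4 without SclRER/RER array 3. The count over all genes, 451, was 239 with median scaling, 704 with array weights and 432 with the replicate block, and from 192 (leaving out WT array 2) to 602 (leaving out SclRER/RER array 3), with 212 for WT array 3 and 297 for SclRER/RER array 2. Same-numbered arrays share only a number (correlations of their deviations from the genotype means were 0.16, -0.03 and 0.07, and not every array correlated best with its own number). The block made no call on a member probe, and the adjusted p of Cish was 0.0681 under it. Signal near background limits what could be read for Bcl2l1, Bcl2l11 and Bbc3.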
